A study of Mus musculus with 6 samples.

Results

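Transcript levels were examined for 10 genes for transcription factors of granulopoiesis, the making of neutrophils from marrow progenitors, in bone marrow neutrophils of stressed and unstressed mice. The members, chosen by name, are Cebpa, Cebpb, Cebpd, Cebpe, Spi1, Gfi1, Runx1, Irf8, Mxd1 and Myc, and each of the 10 had a single row among the 47561 rows of the deposited files. The study compared 3 libraries from Control mice with 3 from mice that had gone through 4 weeks of chronic unpredictable mild stress, or CUMS, in which mild stressors of changing kind follow each other. All mice were male and wild type (WT), and the labels give the cell type as neutrophils of the bone marrow (a flow cytometry sort, in the words of the series' design text). Age, strain, sorting gate and the number of animals behind a library are not stated in the labels, so p-values measure the spread between these samples, which may be technical.

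In the marrow, these factors act in stages. RUNX1, C/EBP alpha and GFI1 act early: RUNX1 and C/EBP alpha open the myeloid programme in progenitors, PU.1 (the product of Spi1) serves both neutrophils and monocytes, and GFI1 represses the monocyte programme, whereas IRF8 favours monocytes and dendritic cells. C/EBP epsilon switches on the secondary granule genes at the myelocyte stage, while C/EBP beta, C/EBP delta and MXD1 (also known as MAD1) become prominent as cells stop dividing and mature. MYC drives growth and division through its partner MAX, and MXD1 competes with it for MAX.

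Of the 10 genes, Runx1 rose in CUMS and Mxd1 fell, both by small amounts, and the other 8 did not pass the test. Runx1 was 22.3% higher and Mxd1 fell by 8.79%, each with an adjusted p under edgeR's quasi-likelihood test below the threshold of 0.05. Over all 15778 genes tested, 4.5% were called (2.36% higher and 2.14% lower in CUMS), beside 2 of 10 (1 higher and 1 lower) among the members. The 3 early factors were all higher by sign and the 3 late factors all lower by sign, although Cebpb (without Control replicate 3) and Cebpd (without CUMS replicate 3) were higher by sign with that library left out.

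The promoters in the RefSeq table for GRCm38.p6 (250 bases before to 50 after each start) show the motifs through which these factors can bind each other's genes, and are given because Runx1 and Mxd1 were the members that changed. The table held 9 promoters for 6 of the 10 members (Cebpa, Cebpb, Gfi1, Irf8, Mxd1 and Runx1). The motifs searched on both strands were the E-box CACGTG of MYC, MAX and MXD1, TTNNGNAA for C/EBP factors, TGTGGT for RUNX factors, GAGGAAGT for PU.1 and AAATCAC for GFI1, and the composite motif of IRF with PU.1. Each window below is 30 bases, 5′ to 3′ on the gene's own strand, with the matching letters in capitals.
Runx1, distal promoter, E-box, minus strand, chr16:92826128-92826157: catcacttaagtCACGTGattggcaagagc
Runx1, distal promoter, a pair of RUNX motifs read on the other strand, minus strand, chr16:92826029-92826058: acctcataaacaACCACAgaACCACAagtt
Mxd1, C/EBP motif read on the other strand, minus strand, chr6:86669244-86669273: gccgcgggcacTTCCCCAAtcgcggagggc
Gfi1, C/EBP motif read on the other strand, minus strand, chr5:107725930-107725959: cgaaggtaggtTTGCTGAActgctgtgcct
Irf8, GFI1 motif read on the other strand, plus strand, chr8:120736171-120736200: gacgtgcaaaaGTGATTTctcggaaagaga

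The distal Runx1 promoter was the only one of the 9 with the E-box, which 7.15% of the 32851 promoters in the table hold, and the only one with the RUNX motif, held by 16.8%. The E-box begins 71 bases before the RefSeq start, and the RUNX motifs begin at positions 29 and 37 counted from 1 at that start. The GENCODE gene starts 75 bases further upstream, so the E-box lies inside the GENCODE model of the gene. TTNNGNAA is a loose motif, found in 40.7% of all promoters and in 2 of these 9. The GFI1 motif stood in 1 of the 9 and in 3.2% of all, and neither the PU.1 motif (3.2% of all) nor the composite one (2.72%) was found in the 9. None of the matches shown overlaps a match of another motif searched. A match is a description of letters only: binding was not measured here. The distal and proximal starts of Runx1 lie 128745 bases apart, and the files give 1 value for the whole gene, so use of either start cannot be read from them.

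**Figure D1:**
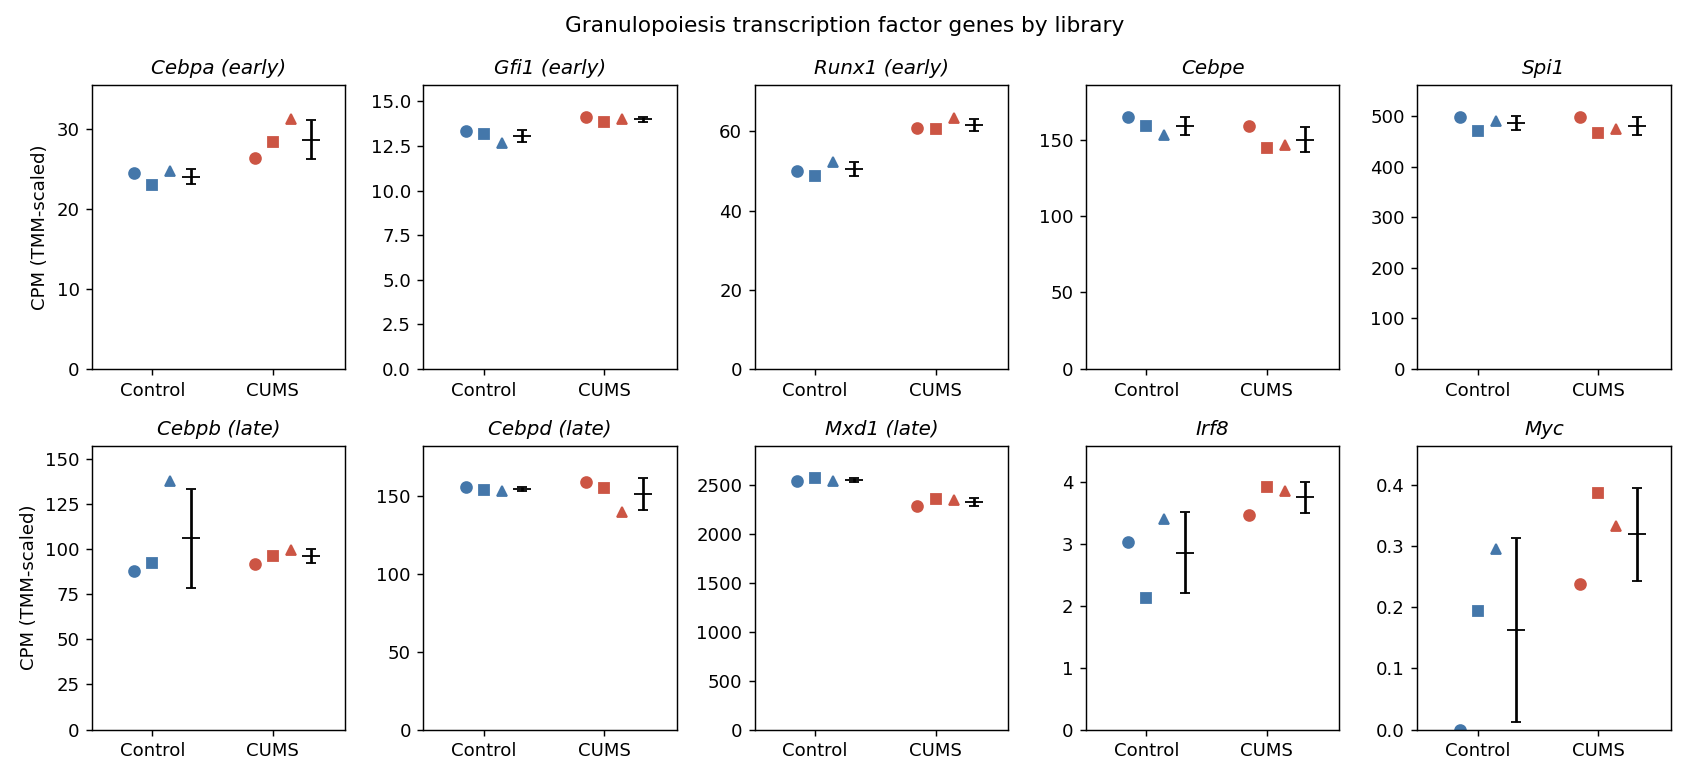
Abundance of the 10 genes in each library, in CPM scaled by TMM (vertical axes start at 0 and differ between panels), with circles, squares and triangles for replicates 1, 2 and 3 and a black bar for mean ± SD of 3 libraries. All 3 CUMS libraries lie above all 3 Control libraries for Cebpa, Gfi1, Runx1 and Irf8, and below them for Mxd1, while Cebpb has 1 high Control library at 137 CPM.

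Runx1, on the minus strand of chromosome 16 at 92601466 to 92826149 (GRCm38, GENCODE M21, 7 annotated transcripts), encodes the DNA-binding subunit of core binding factor. Its abundance, in CPM (counts scaled to library size with TMM factors), was 50.1, 48.8 and 52.3 in Control replicates 1 to 3 and 61.0, 60.6 and 63.3 in CUMS replicates 1 to 3. The groups were separated by a gap wider than the spread within either. Its log2 fold change was 0.29 ± 0.052 (SE, n = 3 each), with a 95% interval of 0.18 to 0.40 and an edgeR adjusted p of 0.0088. Leaving out Control replicate 2 or CUMS replicate 3 ended the call (adjusted p = 0.055 and 0.056), while the fold change moved little, between 0.27 and 0.32 over 12 alternatives. Its partner Cbfb, the non-DNA-binding subunit, stood at 77.8 ± 0.339 CPM in Control and at 72.3 ± 5.81 CPM in CUMS (SD, n = 3 each) and was not called.

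Cebpa, the gene of C/EBP alpha, is on chromosome 7 (35119293 to 35121928, plus strand). It measured 24.5, 22.9 and 24.7 CPM in Control and 26.4, 28.3 and 31.3 CPM in CUMS. All CUMS libraries were above all Control libraries, but they were more uneven than the Control libraries. The log2 fold change was 0.25 ± 0.078 (SE), with an interval of 0.084 to 0.42 and an unadjusted p of 0.0071, and it did not pass after adjustment over all genes (edgeR adjusted p = 0.102). DESeq2, which called 9.61% of the genes it tested, gave an adjusted p of 0.042 for Cebpa.

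Gfi1, the gene of a zinc finger repressor (chromosome 5, 107716657 to 107726036, minus strand), was the least changed of the early factors. It measured 13.3, 13.2 and 12.7 CPM in Control and 14.1, 13.9 and 14 CPM in CUMS. The libraries were close to each other and the groups did not overlap, yet the gap was small. Its log2 fold change of 0.10 ± 0.088 (SE) was not called (edgeR adjusted p = 0.65), and the interval of -0.091 to 0.29 holds both no change and a rise as large as that fitted for Runx1. Its paralogue Gfi1b, known for red cells and platelets, was at 0.183 ± 0.179 CPM in Control and 0.143 ± 0.247 CPM in CUMS.

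Among the late factors, Mxd1 (chromosome 6, 86647042 to 86669161, minus strand) had the highest level per length of exon and was the one that fell. It measured 2545, 2580 and 2546 CPM in Control and 2288, 2363 and 2346 CPM in CUMS. Its Control libraries differed from each other by less than its CUMS libraries did, and all 3 CUMS libraries were lower. The log2 fold change was -0.13 ± 0.031 (SE), with an interval of -0.20 to -0.065 and an edgeR adjusted p of 0.032. The call was lost when genes of low counts were kept (0.098), and when Control replicate 2 (0.168) or 3 (0.112) or CUMS replicate 2 (0.088) or 3 (0.153) was left out, while the fold change stayed between -0.14 and -0.12 over the 12 alternatives.

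Cebpb, the gene of C/EBP beta, which is needed when granulopoiesis is stepped up in infection, has 1 exon on the plus strand of chromosome 2 (167688915 to 167690418). It measured 87.8, 92.4 and 137 CPM in Control and 91.8, 96.3 and 99.5 CPM in CUMS. Control replicate 3 stood apart from the other 5 libraries, which lay between 87.8 and 99.5 CPM. The log2 fold change of -0.14 ± 0.13 (SE; interval -0.43 to 0.15, edgeR adjusted p = 0.67) took its sign from that library: without it the value was 0.093 and was not called either (adjusted p = 0.52).

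Cebpd, the gene of C/EBP delta (chromosome 16, 15887286 to 15891031, plus strand), measured 156, 154 and 154 CPM in Control and 160, 155 and 140 CPM in CUMS. CUMS replicate 3 was the low library, and the other 5 lay close together. The log2 fold change was -0.03 ± 0.052 (SE), with an interval of -0.14 to 0.085 and an edgeR adjusted p of 0.86. The annotated spans of both genes overlap that of a neighbour on the opposite strand, Cebpb with Tmem189 and Cebpd with Spidr. Whether the neighbours have exons there was not examined, and reads from any shared exon cannot be told apart without strand. Tmem189 measured 80.5 ± 1.56 and 83.5 ± 2.51 CPM, and Spidr 63.4 ± 2.1 and 64.0 ± 1.90 CPM, in Control and CUMS (SD, n = 3 each), with overlapping libraries. GENCODE also places opposite-strand transcripts over Cebpa (Gm45091), Gfi1 (A430072P03Rik) and Runx1 (Gm26626), and their share of the reads was not analysed here. Irf8 lies within the span of Gm20388 (119910841 to 124345722), a protein-coding gene on the same strand. Whether the 2 genes share exons was not examined, and the share of Gm20388 in the reads was not analysed here.

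Cebpe and Spi1, factors of the granule stage and of the whole myeloid line, did not move beyond their spread. Cebpe (chromosome 14, 54710360 to 54712174, minus strand), whose product switches on the secondary granule genes, measured 165, 159 and 153 CPM in Control and 159, 144 and 147 CPM in CUMS. The groups overlapped, and the log2 fold change was -0.08 ± 0.050 (SE; interval -0.19 to 0.028, edgeR adjusted p = 0.46). Spi1 (chromosome 2, 91082390 to 91115756, plus strand), which encodes the ETS factor PU.1, measured 498, 471 and 490 CPM in Control and 499, 466 and 475 CPM in CUMS. The libraries interleaved, and the interval of its log2 fold change, -0.11 to 0.072, was the narrowest but one among the 10 genes (-0.02 ± 0.041 SE, edgeR adjusted p = 0.89).

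Irf8 and Myc, the factors of the monocyte path and of dividing cells, were near the bottom of the scale. Irf8 (chromosome 8, 120736358 to 120756694, plus strand) measured 3.03, 2.13 and 3.40 CPM in Control and 3.46, 3.92 and 3.86 CPM in CUMS. Control replicate 2 was the low library, and CUMS replicate 1 was only just above the highest Control library. The log2 fold change of 0.39 ± 0.20 (SE) had a wide interval, -0.042 to 0.83, and was not called (edgeR adjusted p = 0.35). Of the 18 monocyte and dendritic cell markers, which include Irf8, 3 rose and 0 fell. The log2 fold changes of these 3 were 0.19 (Csf1r), 1.34 (F13a1) and 1.38 (Fn1). By sign 14 of the 18 were higher and 4 lower (median log2 fold change 0.229). Their summed levels overlapped, at 794.5 to 846.5 (Control) and 767.9 to 863.7 CPM (CUMS). Ly6c2, lower by sign (-0.13) and not called as fitted, was the largest part of these sums (means of 530 and 484 CPM, Control first). It was called lower without CUMS replicate 1. None of the 18 was at 0 in any library. Their part in the Irf8 values was not tested.

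Myc (chromosome 15, 61985391 to 61990374, plus strand) was close to absent: Control replicates 1 to 3 had estimated counts of 0, 20 and 25, and CUMS replicates 20, 43 and 36. A read pair was worth about 4 of these counts, so the richest library held 10.75 read pairs of Myc. A count of 0 allows up to 3 read pairs, or 12 estimated counts, in a library, which was taken as the floor. Control replicate 1 lay at that floor, and the other libraries held 5 to 10.75 read pairs, above it but few. No fold change was read from these levels, and a difference was not detectable at this depth (edgeR adjusted p = 0.71). That floor covers counting error alone, as PCR copies were not told apart.

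**Figure D2:**
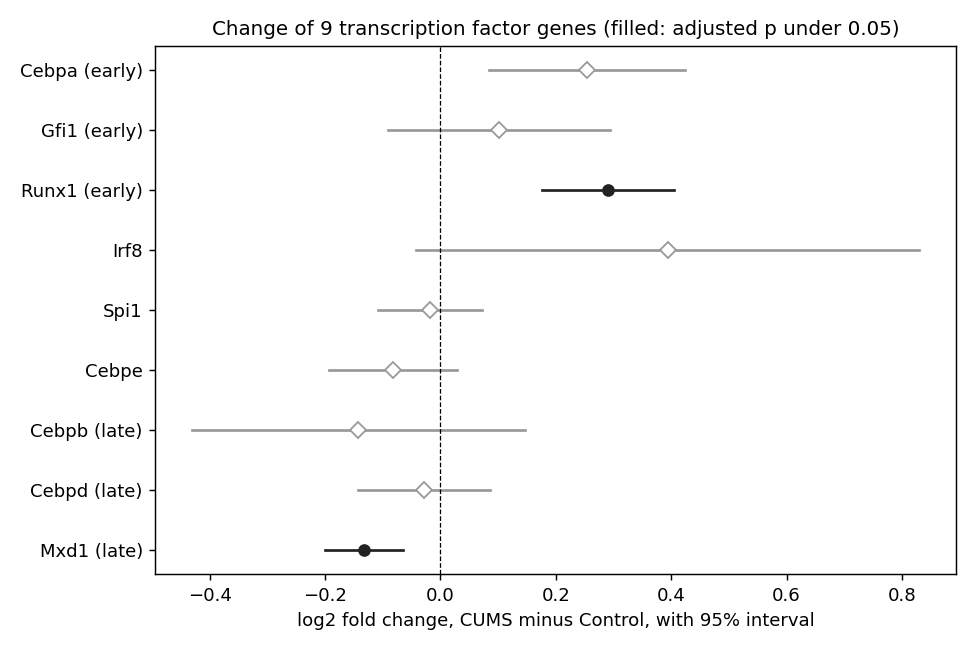
Log2 fold change, CUMS minus Control, with its 95% interval for 9 of the 10 genes, Myc being left out for its near-zero counts. Filled circles mark the genes called at an adjusted p of 0.05, Runx1 at 0.29 and Mxd1 at -0.13, and the other intervals reach zero except that of Cebpa, which was not called after adjustment.

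Per kb of annotated exon, the scale on which levels of different genes can be compared, the late factors and the granule-stage factors stood far above the early ones in both groups. The Control means were 362 CPM per kb for Mxd1, 180 for Spi1, 128 for Cebpe, 70.4 for Cebpb and 41.3 for Cebpd. The early factors followed with 9.12 for Cebpa, 4.19 for Runx1 and 4.10 for Gfi1, and Irf8 (0.405) and Myc (0.060) came last. The order was the same in CUMS, from 330 for Mxd1 to 0.117 for Myc. Neighbours in that order did not overlap between libraries of a group, except Runx1 (4.06 to 4.35) and Gfi1 (3.97 to 4.18) in Control. In CUMS the same genes were apart, at 5.04 to 5.27 and 4.35 to 4.43 CPM per kb. The length is that of all annotated exons of a gene combined (12.025 kb for Runx1), so a gene with many transcripts is given a lower level per kb than a single transcript would have.

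The balance of early against late factors was taken in each library as the mean log2 CPM of Cebpa, Gfi1 and Runx1 minus that of Cebpb, Cebpd and Mxd1. It was -3.68, -3.76 and -3.89 in Control and -3.51, -3.51 and -3.40 in CUMS. All CUMS libraries were higher, and the group means differed by 0.31 on the log2 scale. Because the score is built from named members, it is a description with no test. The early side accounted for 0.21 of the difference, with library values of 4.62 to 4.67 in Control and 4.83 to 4.92 in CUMS. The late side accounted for 0.09 in the other direction (a difference of -0.0923), with overlapping libraries (8.35 to 8.56 and 8.32 to 8.36), and the upper end of its Control range was replicate 3, the library with high Cebpb.

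**Figure D3:**
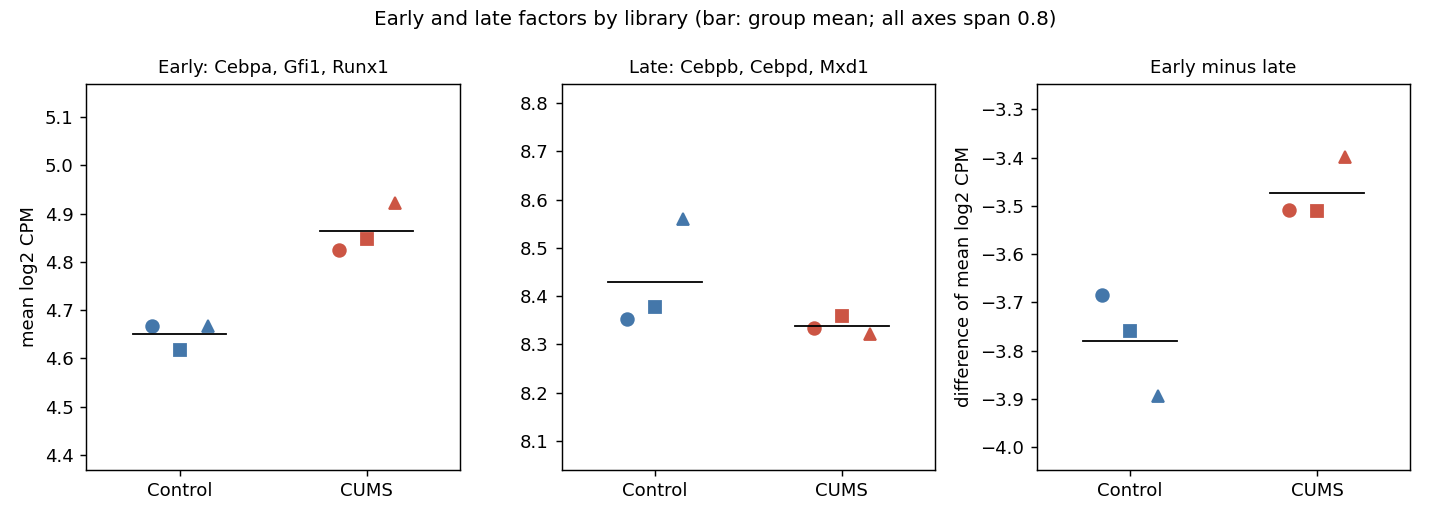
Mean log2 CPM of the early factors, of the late factors, and their difference in each library (circles, squares and triangles for replicates 1, 2 and 3, bar for the group mean, every vertical axis spanning 0.8). The CUMS libraries lie above the Control libraries for the early factors and for the difference, and the late factors overlap.

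The same shift can be read gene against gene. Of the 9 ratios of an early to a late factor, all 9 had a higher mean log2 in CUMS, and in 8 the libraries did not overlap, Gfi1 to Cebpb being the exception. The ratios share genes, the called Runx1 and Mxd1 among them, and are not separate observations. How often ratios of other genes separate the groups was not counted. Runx1 against Mxd1 was 19.7, 18.9 and 20.5 CPM of Runx1 per 1000 CPM of Mxd1 in Control and 26.7, 25.7 and 27.0 in CUMS, a log2 difference of 0.42. Gfi1 against Cebpd moved least, by 0.13. Summed as CPM, Mxd1 made up 89.7% to 91.3% of the late factors, so a ratio of sums follows Mxd1: the early sum was 84.9 to 89.6 CPM in Control and 102 to 109 CPM in CUMS, and the late sum 2789 to 2837 and 2540 to 2614 CPM.

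By single genes, 4 members were higher in every CUMS library than in every Control library (Cebpa, Gfi1, Runx1 and Irf8), 1 was lower (Mxd1) and 5 overlapped. Over all genes tested, groups did not overlap for 22.9% (11.5% higher and 11.5% lower). The median log2 fold change was 0.041 over the 10 members, 0.254 over the 3 early and -0.133 over the 3 late factors, and -0.0073 over all genes tested. The 10 include Myc, from which no fold change was read, and without Myc the middle value is that of Spi1 (-0.018).

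The partners and rivals of MYC were examined next, since MXD1 competes with MYC for MAX. Of 11 further genes of this network, 8 had enough reads to be tested, 1 rose and 0 fell, with a median log2 fold change of 0.061. Max, the obligate partner of both MYC and MXD1, rose from 439 ± 14.7 to 491 ± 14.4 CPM (SD, n = 3 each), or by 0.16 ± 0.041 on the log2 scale (SE, edgeR adjusted p = 0.048). Max thus moved against Mxd1: it stood at 167 to 178 CPM per 1000 CPM of Mxd1 in Control and at 203 to 222 in CUMS. The Max call sat at the threshold and ended with no filter (adjusted p = 0.071) and on leaving out any one library except Control replicate 1 (up to 0.166). Mxi1, another MXD relative, measured 154 and 159 CPM (log2 fold change 0.05 ± 0.045, not called), and Mlxip, a glucose-responsive member, 147 and 155 CPM (0.08 ± 0.063, not called). Mxd3, the relative linked to dividing cells and picked out after its values were seen, had a log2 fold change of -0.94 ± 0.27 from 2.05 ± 0.607 CPM and was not called. Per kb of exon, Mxd1 and Max (362 and 122 CPM per kb in Control) led this network, and Mycn, Mycl and Mlxipl were each listed at 0 in at least 3 libraries.

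**Figure D4:**
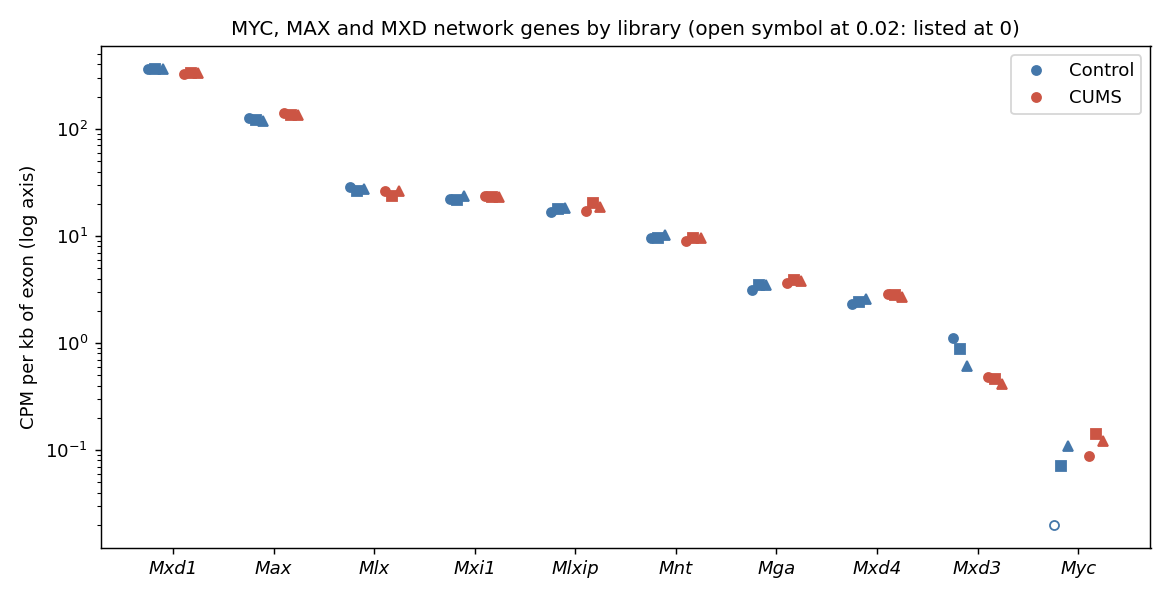
Levels of 10 genes of the MYC, MAX and MXD network in each library, in CPM per kb of annotated exon on a log axis (circles, squares and triangles for replicates 1, 2 and 3, an open symbol for a gene listed at 0). Mxd1 lies highest and Myc lowest in both groups, and the CUMS libraries are lower for Mxd1 and higher for Max.

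Relatives of the other members moved in both directions. In the C/EBP family and its dimer partners, 0 of 9 genes passed edgeR's test (1 with DESeq2, and 1, Atf3, by edgeR without Control replicate 2). At an unadjusted p under 0.05 there were 5 of 9, beside 16.9% of all genes tested. Trib1, the pseudokinase that marks C/EBP alpha for breakdown, stood at 449 ± 2.80 CPM in Control and at 482 ± 3.01 CPM in CUMS (log2 fold change 0.10 ± 0.035 SE), and the adjusted p was 0.14 by edgeR and 0.020 by DESeq2. Atf4, a stress-response partner, was at 120 and 113 CPM with overlapping libraries. Of 21 RUNX, ETS, GFI and IRF relatives, 2 rose and 1 fell (median log2 fold change 0.068). Ets2 fell from 326 ± 5.15 to 260 ± 15.1 CPM (-0.32 ± 0.047, adjusted p = 0.0025). Irf2, a regulator of interferon-response genes, rose by 0.25 ± 0.048 (adjusted p = 0.013). Spib, the PU.1 relative of B cells and plasmacytoid dendritic cells, rose by 0.68 ± 0.15 from 5.36 ± 0.756 CPM (adjusted p = 0.025). In the same libraries 1 of 17 B and plasma cell markers rose (Ighm) and 1 fell (Xbp1). By sign 16 were higher and 1 lower (median log2 fold change 0.312). Their summed levels were 255.5 to 260.9 CPM in Control and 283.0 to 290.9 CPM in CUMS, with 2 markers listed at 0 in a library. Pax5 was not called as fitted (edgeR adjusted p = 0.068). It was called higher with DESeq2, voom weights, values divided by 4 and the replicate block. The part of these markers in the Spib value was not tested. Leaving out Control replicate 2 or 3 or CUMS replicate 3 ended the Irf2 call (up to 0.082). The Spib call ended with no filter (0.054) and on leaving out replicate 1 or 3 of either group (up to 0.118). The count of 3 calls in these relatives was 7 with DESeq2 (6 higher), 5 with voom weights or values divided by 4, and 1 (Ets2) without replicate 3 of either group.

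Of 36 other regulators of myeloid cells, 33 were tested, 2 rose and 2 fell (median log2 fold change 0.075). Rara, the retinoic acid receptor gene known for its part in neutrophil maturation, rose from 187 ± 3.25 to 219 ± 3.61 CPM, by 0.23 ± 0.039 on the log2 scale (adjusted p = 0.0077), and was called under all 12 alternatives. Zbtb16 (PLZF), a progenitor factor that also responds to glucocorticoids, rose by 0.49 ± 0.10 (adjusted p = 0.021). Id1, an inhibitor of E proteins, fell by 0.57 from 25.2 ± 2.32 to 17.0 ± 1.08 CPM (adjusted p = 0.0041), also under all 12 alternatives, and the immediate early gene Egr1 fell by 0.20 (adjusted p = 0.031). Leaving out any one library ended the Egr1 call (0.070 to 0.120), as did keeping all genes (0.068). Leaving out replicate 2 of either group, Control replicate 1 or CUMS replicate 3 ended that of Zbtb16 (up to 0.114). The list held 8 calls with DESeq2 (5 higher and 3 lower) and 2 (Rara and Id1) without Control replicate 2 or CUMS replicate 3. Ikzf1 (log2 fold change 0.05) and Stat3 (-0.06), the most abundant of the rest by CPM, were not called.

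Genes known as targets of the members were counted from lists chosen with earlier results of these data known. Elane and Mpo also stand in the progenitor list and Csf1r in the monocyte list, so their calls are counted in both places. Of 11 primary granule and receptor genes tested, targets of C/EBP alpha, PU.1 and RUNX1, 3 rose and 0 fell, with a median log2 fold change of 0.188: Elane (neutrophil elastase) by 2.23 ± 0.32 from 0.454 CPM, Mpo (myeloperoxidase) by 1.03 ± 0.19 from 3.42 CPM and Csf1r (the M-CSF receptor) by 0.19 ± 0.041 from 176 CPM. Elane was at 0.599, 0.339 and 0.424 CPM in Control replicates 1 to 3, so the size of its rise rests on few reads. Leaving out any one library except CUMS replicate 1 ended the Csf1r call (adjusted p up to 0.114). Without CUMS replicate 1, with DESeq2 and with voom weights the list held 5 calls, all higher, adding the receptor genes Csf3r and Il6ra. Of 11 secondary granule genes, 0 rose and 4 fell (Olfm4, Chil3, Camp and Ltf), and all 11 were lower by sign (median -0.087), beside a Cebpe level that was not called. Camp and Ltf lost their calls with RLE scaling (adjusted p = 0.050 and 0.060), with no filter (0.127 and 0.140) and on leaving out any one library except CUMS replicate 1 (up to 0.209 and 0.256), and Camp also with DESeq2 (0.087). Of 20 growth and ribosome genes that MYC is known to drive, 0 rose and Ldha fell (-0.27 ± 0.044, adjusted p = 0.0049), with a median of -0.093. Of 30 cell division genes, 20 fell and 0 rose (median -0.636), among them Cdk1 by 0.93, Plk1 by 0.84, Cdc20 by 0.82 and Birc5 by 0.80, in the same libraries in which Mxd1 was lower. Leaving out replicate 3 of either group ended the Birc5 call (adjusted p up to 0.068).

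The marker lists describe which cells the libraries hold. All 10 defining neutrophil markers were present in every library, with summed levels of 100885 to 112251 CPM in Control and 84885 to 109776 CPM in CUMS. As fitted, 1 rose (Mmp9, by 0.12) and 0 fell, with 6 lower by sign. At an unadjusted p under 0.05 there were 5 of 10, beside 16.9% of all genes tested. These counts depended on single libraries: 0 were called with no filter or with replicate 2 or 3 of either group left out, and 5 without CUMS replicate 1, when Csf3r and Mmp9 rose and S100a8, S100a9 and Ngp fell. S100a8, a calprotectin subunit picked out after its values were seen, measured 19315, 18772 and 19676 CPM in Control and 19775, 11997 and 13583 CPM in CUMS, where replicate 1 stood with the Control libraries (log2 fold change -0.35 ± 0.13 SE, edgeR adjusted p = 0.196, called lower with voom weights). Of 12 progenitor markers, Elane and Mpo rose and 0 fell, with summed levels of 47.0 to 49.0 CPM in Control and 51.5 to 57.7 CPM in CUMS and 1 marker listed at 0 in a library. By sign 8 were higher and 4 lower (Cd34, Fcgr1, Hlf and Ms4a3, none called). Prtn3 and Ctsg, primary granule genes like Elane and Mpo, were not called (edgeR adjusted p = 0.73 and 0.43). Kit, the stem cell factor receptor gene, measured 30.7 ± 2.13 and 32.5 ± 2.32 CPM, with overlapping libraries. Of 18 erythroid markers, 9 rose and 0 fell, with summed levels of 1319 to 1890 and 2543 to 3029 CPM and none at 0. Among them were Car2 (carbonic anhydrase 2) by 1.21, Slc4a1 (the band 3 anion exchanger) by 1.20 and Alas2 (the erythroid heme synthesis enzyme) by 0.99, each called under all 12 alternatives, and Epb42 by 1.45 from 0.689 CPM, called under 5 of them. Of 15 eosinophil and basophil markers, 2 rose and 0 fell, with summed levels of 53.5 to 61.6 and 56.9 to 66.8 CPM and 4 at 0 in a library. Prg2, an eosinophil granule protein gene, rose from 0.885 ± 0.114 to 4.82 ± 0.708 CPM (log2 fold change 2.45 ± 0.21 SE, edgeR adjusted p = 6.9e-05). The other was Epx, eosinophil peroxidase, at 0.119 ± 0.11 and 1.49 ± 0.148 CPM, which was not called when Control replicate 3, CUMS replicate 2 or CUMS replicate 3 was omitted. Epx was at 0.217, 0 and 0.141 CPM in Control replicates 1 to 3, at or near the floor, and no fold change was read. The basophil and mast cell genes Ms4a2 (1.32 ± 0.370 and 0.439 ± 0.232 CPM) and Prss34 (3.96 ± 0.146 and 2.98 ± 0.371 CPM) lay lower in every CUMS library than in every Control library and were not called by edgeR. Among all genes tested, 11.5% lay lower in that way. With DESeq2 or values divided by 4 the list held 4 calls, Ms4a2 and Gata2 being lower. Epx, Ms4a2 and Prss34 were picked out after their values were seen. T and NK cell markers (0 of 7 tested called by edgeR, 0 at an unadjusted p under 0.05, 5.7 to 7.8 and 5.6 to 8.3 CPM, 7 of 12 at 0 in a library) were low. Runx1, Cebpa and Gfi1 are also expressed in progenitors of several lineages. The part of progenitor and erythroid RNA in their values was not tested, and in bulk RNA fewer cells of a type and less RNA per cell cannot be told apart.

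**Figure D5:**
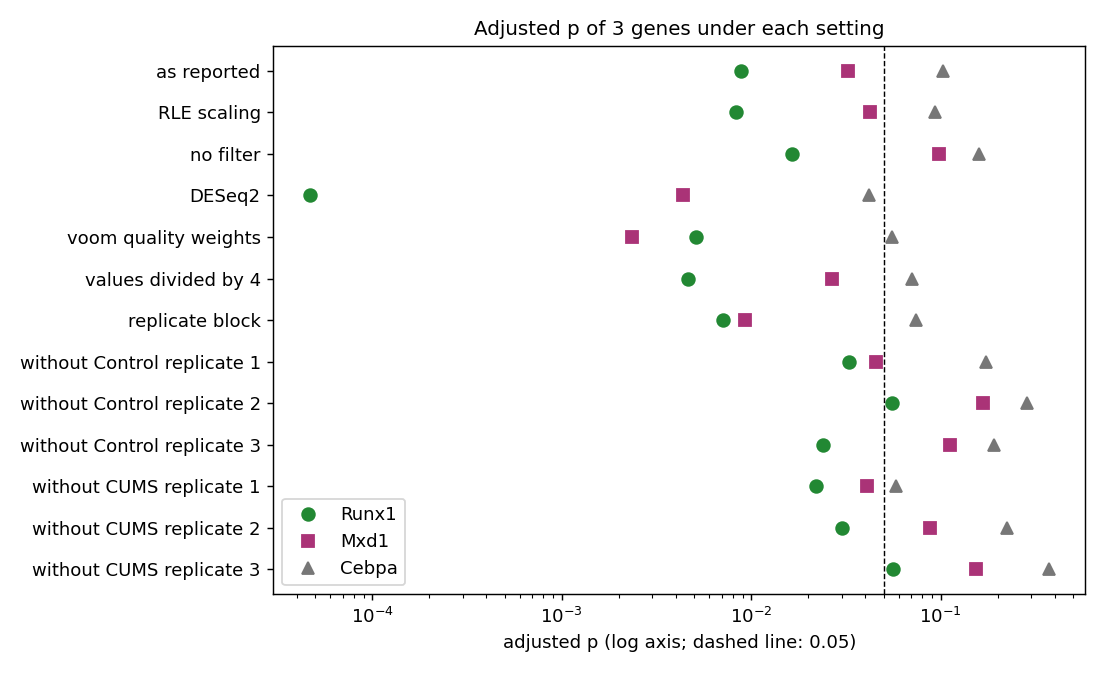
Adjusted p of Runx1, Mxd1 and Cebpa as reported and under 12 alternatives, on a log axis with a dashed line at 0.05. Runx1 stays left of the line except without Control replicate 2 or CUMS replicate 3, Mxd1 crosses it in 5 settings, and Cebpa lies left of it with DESeq2 alone.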

How the data were processed

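RNA-seq used 1 µg of total RNA per library, a TruSeq kit and paired reads of 150 bp, per the labels' protocols. HISAT2 2.1, cutadapt 1.16.5, featureCounts 1.6.4 and DESeq2 2.11.40.6 stand in the submitters' processing notes, with the build mm10. The deposited values are whole numbers per gene, taken as estimated counts: the values 4, 8, 12 and 16 were over-represented (1.89, 1.66, 1.41 and 1.38 times the mean of the adjacent values), which puts a read pair at about 4. Totals ran from 78845457 to 109757558 per library, about 19711364 to 27439390 read pairs. Whether strand was kept is not given in the sources used here.

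CUMS was compared with Control by edgeR 4.0.16 (R 4.3.3): filterByExpr, TMM, a quasi-likelihood F test on group alone, and Benjamini-Hochberg adjustment over 15778 genes at 0.05. SEs come from the F statistic. Where rows shared a symbol, that with the highest total kept it. Log2 CPM used a prior count of 2. Positions and exon lengths come from GENCODE M21 (GRCm38), matched by symbol. Alternatives were RLE scaling, no filter, DESeq2 1.42.0, voom with quality weights (limma 3.58.1), values divided by 4, a replicate block and each library left out. On simulated counts with 200 changed genes, 83.7% of 2-fold changes and 36.3% of 1.3-fold changes were found and 7.46% of calls were false, over 3 draws of 15254 to 15304 genes.

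The members and lists were chosen with earlier results of these data known. Named were all members and, per list, up to 4 called genes of at least 1 CPM by size of change, plus up to 2 others by level in the regulator lists. Genes named outside this rule were picked after their values were seen.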

Additional observations from a re-analysis of the deposited data

How the results depend on the processing

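Across 12 alternatives, the direction of Runx1, Mxd1, Cebpa, Gfi1, Cebpe and Irf8 did not change. The signs of Cebpb, Cebpd and Spi1 turned only when a library was left out. Over those fits the log2 fold change of Cebpb (-0.14 as reported) ranged from -0.26 to 0.093. That of Cebpd ranged from -0.065 to 0.029 and that of Spi1 from -0.046 to 0.0057. The number of members called was 2 as reported, 3 with DESeq2 (Cebpa, Runx1 and Mxd1) and 1 with no filter (Runx1). It was from 0 to 2 with 1 library left out: 0 without Control replicate 2 or CUMS replicate 3. The number of genes called in all was 710 as reported, 462 with no filter, 1146 with DESeq2 and from 305 to 697 with 1 library left out. RLE scaling gave 709 calls, voom quality weights 953 and values divided by 4 895. The early minus late difference of 0.31 ran from 0.25 to 0.35 with 1 library left out and was 0.38 as a ratio of CPM sums. Deviations of same-numbered libraries from their group means correlated at 0.0081, 0.0035 and -0.026 over the genes tested. Those of other pairs of libraries ran from -0.029 to 0.027. With 3 libraries a group, such values cannot exclude a pairing or a shared batch, and none is stated. With the replicate block 931 genes were called, Runx1 (adjusted p = 0.0071) and Mxd1 (0.0093) among them, and no member changed its call. The block gave 4 calls among the neutrophil markers (Mmp9 higher, Ngp, S100a8 and S100a9 lower), against 1 without it. Depth limits Myc, with 0 to 10.75 read pairs a library. Irf8 had 55 to 109 read pairs a library, and the part of depth in its wide interval was not tested. The fitted folds of Gfi1 (1.07), Runx1 (1.22) and Mxd1 (0.912) were all smaller changes than the smallest simulated, 1.3-fold. The simulation therefore gives no recovery rate for changes of their size.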
